A study of Homo sapiens with 20 samples.

Results

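Replication-dependent histone genes encode the core histones H2A, H2B, H3 and H4 and the linker histone H1 that package newly made DNA. They were chosen by symbol: protein-coding genes of the clusters on chromosome 6 (54 genes) and chromosome 1 (13 genes) named H1-1 to H1-6, H2AC, H2BC, H3C or H4C with a number, without H2BC12, whose mRNA is also made in a polyadenylated form. Of the 67 genes, 32 were found among the 57736 genes of the drug tables and 44 among the 53150 of the excision tables, 31 of them in both; the 22 found in neither are not analysed here. A filter on low counts left 30 genes for testing in the drug arm (5 H1, 8 H2A, 9 H2B, 5 H3 and 3 H4 genes) and 40 in the excision arm (5, 14, 10, 6 and 5). H1-1 and H2AC7 did not pass in the drug arm, and H1-1, H2BC10, H4C2 and H4C6 did not in the excision arm.

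All 20 libraries are RNA-seq of K562, a human erythroleukemia cell line, with 10 groups of 2 biological replicates. In the drug arm (12 libraries, 22925617 to 38177320 gene counts each) cells received both drugs, 5 uM GSK343 and 100 uM X5050, for 8 h, 24 h or 72 h, GSK343 alone (5 uM, 72 h), X5050 alone (100 uM, 72 h), or DMSO for 72 h. GSK343 inhibits EZH2, the methyltransferase of Polycomb repressive complex 2, and X5050 lowers the repressor REST. In the excision arm (8 libraries, 55913561 to 98507788 estimated counts each) CRISPR removed 2 silencer regions (DKO), silencer 1 (S1KO) or silencer 2 (S2KO), against an empty vector (EV); whether an excised line is 1 clone is not given in the sources used here. The libraries were made from total RNA with rRNA depleted, so that mRNAs without a poly(A) tail are kept. Of 13 erythroid K562 markers 11 exceeded 1 CPM (counts scaled to the TMM-normalised library size) in every drug library and 13 in every excision library, HBZ and HBA2 being the lowest in the drug arm; of 10 markers of other cell types 5 stayed below 1 CPM in every library of each arm, and EPCAM, at 24.9 to 65.9 CPM in the drug arm, was the highest.

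Replication-dependent histone mRNAs are animal mRNAs that end without a poly(A) tail. Their 3′ end is a conserved stem-loop bound by SLBP, which escorts the mRNA from processing to translation and, at the end of DNA synthesis, to decay. Transcription is driven in S phase by NPAT, a substrate of cyclin E with CDK2, at nuclear bodies that hold the clusters. In chromatin H3 pairs with H4 and H2A with H2B, and the gene families carry partly different promoter elements.

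The stem-loop is what sets these mRNAs apart, so sites of 7 genes that recur below are given from GENCODE 29 transcripts (build GRCh38, sense strand), with the 16 bases of the stem-loop in capitals and 5 bases on each side.
H4C8: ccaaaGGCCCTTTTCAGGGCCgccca
H4C11: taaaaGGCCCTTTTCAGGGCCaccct
H3C10: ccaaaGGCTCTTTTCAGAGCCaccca
H2AC25: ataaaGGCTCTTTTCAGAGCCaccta
H2BC21: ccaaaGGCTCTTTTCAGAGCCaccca
H2BC26: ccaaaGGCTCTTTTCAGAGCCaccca
H2BC4: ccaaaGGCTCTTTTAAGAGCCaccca
The H4 genes have a stem that opens with GGCCC, and the other genes shown one that opens with GGCTC. The histone stem-loop pattern occurs in transcripts of 74 of 58676 annotated genes (0.126%), 30 of the 67 histone genes among them. Many histone transcripts in this annotation end at the coding sequence, before the site. Others run on past it. Poly(A) tails were not measured, so leaving out H2BC12 does not show that the genes kept are free of polyadenylated forms. In the transcripts used here the site ends 6 bases from the transcript end for H4C11 and 116 for H2BC4. The distance is 390 for H2AC25, 769 for H3C10, 1655 for H4C8, 1729 for H2BC21 and 1917 for H2BC26.

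The promoter elements differ by family, and 4 stretches of 150 bases just before the start site are given from RefSeq (GRCh38.p14), 5′ to 3′ on the strand of the gene, with matches in capitals. Those of H3C4, H2BC21 and H1-2 are each unlike most windows of their family in 1 searched string, described below. H4C11 is at chr6:27823942-27824091 (plus strand), H3C4 at chr6:26199294-26199443 (minus strand, the first of its 2 listed start sites), H2BC21 at chr1:149886683-149886832 (minus strand) and H1-2 at chr6:26056471-26056620 (minus strand).
H4C11: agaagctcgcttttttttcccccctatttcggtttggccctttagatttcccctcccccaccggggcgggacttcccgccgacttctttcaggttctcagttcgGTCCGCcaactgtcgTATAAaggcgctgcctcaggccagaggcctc
H3C4: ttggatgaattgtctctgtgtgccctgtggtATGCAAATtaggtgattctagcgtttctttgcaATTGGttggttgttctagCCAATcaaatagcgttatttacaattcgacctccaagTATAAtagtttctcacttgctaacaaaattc
H2BC21: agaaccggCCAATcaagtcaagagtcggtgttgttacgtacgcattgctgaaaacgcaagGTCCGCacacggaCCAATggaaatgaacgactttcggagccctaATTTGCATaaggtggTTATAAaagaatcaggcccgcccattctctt
H1-2: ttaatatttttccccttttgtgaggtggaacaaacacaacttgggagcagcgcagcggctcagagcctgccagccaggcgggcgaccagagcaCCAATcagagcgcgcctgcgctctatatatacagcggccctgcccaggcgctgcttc
Capitals mark the TATA box core TATAA, the CCAAT box, the octamer ATTTGCAT that POU2F1 binds, and GTCCGC, the core of the H4 element that HINFP binds, each on either strand; TTATAA holds TATAA on both strands. Over 250 bases before the start, TATAA was in 59 of 65 windows of 62 histone genes (90.8%) and in 18.9% of all 35116 windows of the table. It was in 5 of 6 H1 windows, and that of H1-2 is the one without these 5 letters. The H1-2 stretch does hold tatatata, so the search for TATAA does not show that its promoter lacks a TATA box. CCAAT was in every window of H1, H2A, H2B and H3 genes but in 3 of 12 H4 windows, against 32.0% of all windows. The octamer was in 11 of 16 H2A and 13 of 18 H2B windows, in 1 of 13 H3 windows, in 0 of 12 H4 windows, and in 1.63% of all windows. The H3 window that holds it is the one of H3C4 shown, and the other start site of H3C4 has no octamer. H2AC7, an H2A gene whose window also holds the octamer, and H3C4 overlap the same annotated gene on the same strand. Whether the stretch shown also lies before a start site of H2AC7 was not tested, so it does not show an octamer particular to an H3 gene. GTCCGC was in 5 of 12 H4 windows (41.7%) and in 10.4% of all windows. H4C11 had it, H4C8 did not, and no window was listed for H4C3. It was also in 1 of 16 H2A windows (H2AC20) and 1 of 18 H2B windows (H2BC21), which hold the same site, read from opposite strands. Any link of this element to the changes below was not tested. H2BC21 and H2AC20 lie head to head, and 65 bases of the stretch shown for H2BC21 are also in that of H2AC20, read from the other strand.

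After 72 h of both drugs, most of the tested H3 and H4 genes rose, and most of the tested H1, H2A and H2B genes did not. Of the 8 tested H3 and H4 genes 6 rose and 1 fell, with a median log2 fold change of 0.92; of the 22 tested H1, H2A and H2B genes 1 rose and 6 fell, with a median of -0.21 (edgeR, adjusted p under 0.05). Over all 30 this is 7 genes higher and 7 lower, where of all 19224 genes tested 19.2% were higher and 17.3% lower, with a median of 0.01. The counts over all 30 are thus near the background, while the families differ. The tested genes are 5 of the 13 H3 and 3 of the 14 H4 genes of the set, and the others of these families, some of which older identifiers may hold, do not enter these values or the sums per family.

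H3C4, the H3 gene with the highest level per length in the drug arm, had 288 and 211 CPM after 72 h of both drugs, 76.3 and 56.1 CPM with GSK343, 82.6 and 78.8 CPM with X5050, and 72.6 and 90.8 CPM in DMSO. Both libraries with both drugs stood above the other 6, which lay between 56.1 and 90.8 CPM. The rise over DMSO was 1.61 ± 0.17 on the log2 scale (± SE; edgeR adjusted p = 3.30e-06). H3C12, another H3 gene of chromosome 6, had 17.7 and 18.01 CPM with both drugs, 4.57 and 3.39 CPM with GSK343, 7.83 and 5.96 CPM with X5050, and 4.25 and 5.08 CPM in DMSO. It rose by log2 1.94 ± 0.21 (adjusted p = 3.48e-06), the largest rise of a tested histone gene in this comparison. H3C12 overlaps H2AC17 on the same strand, and H2AC17 was not found in the drug arm. H3C4 overlaps an annotated gene that H2AC7 also overlaps, and H2AC7 had at most 0.205 CPM in the drug libraries. Whether reads of overlapping genes were added to or left out of the H3C4 and H3C12 counts was not tested. No such overlap was listed for H3C13, H4C3, H4C8 or H4C11. H3C13, from the chromosome 1 cluster, had 111 and 110.3 CPM against 78.5 and 75.4 CPM in DMSO (log2 0.52 ± 0.19, adjusted p = 0.0478), and that call was lost without any 1 of the 4 libraries and with RLE size factors, unstranded counts or the GC or length trend removed.

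The 3 tested H4 genes, of 14 in the set, rose. H4C3, the H4 gene with the highest level per length in the drug arm, had 449 and 353 CPM after 72 h of both drugs, 169 and 132 CPM with GSK343, 209 and 149 CPM with X5050, and 186 and 201 CPM in DMSO (log2 1.05 ± 0.16 against DMSO, edgeR adjusted p = 0.000115). H4C11, whose promoter and stem-loop are shown above, had 35.1 and 32.8 CPM with both drugs, 10.3 and 9.41 CPM with GSK343, 21.6 and 13.6 CPM with X5050, and 13.8 and 16.7 CPM in DMSO (1.15 ± 0.20, adjusted p = 0.000396). In both genes the libraries with both drugs lay above all 6 others at 72 h. H4C8 had 245 and 210.4 CPM with both drugs against 126 and 137 CPM in DMSO (0.79 ± 0.13, adjusted p = 0.000143), and the 3 calls held with any 1 library left out.

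The 6 genes that fell among H1, H2A and H2B were H2AC20, H2AC25, H2BC21, H2BC26, H1-2 and H1-3. H2AC20, the H2A gene with the highest level per length in the drug arm, had 165 and 165 CPM after 72 h of both drugs against 335 and 345 CPM in DMSO (log2 -1.04 ± 0.17, edgeR adjusted p = 0.000181). Its head-to-head neighbour H2BC21 had 65.1 and 88.6 CPM against 122 and 158 CPM (-0.87 ± 0.16, adjusted p = 0.000664). For both genes the groups did not overlap. H2AC25 and H2BC26, from another site on chromosome 1, had -0.77 ± 0.16 and -0.68 ± 0.16 (adjusted p = 0.00108 and 0.00361), and the calls of all 4 genes held without any 1 library. H1-2, the linker histone gene with the highest level per length, had 576 and 721 CPM against 807 and 1039.8 CPM (-0.51 ± 0.15, adjusted p = 0.0118). That call and the one for H1-3 (-0.58 ± 0.19, adjusted p = 0.0325) were lost without replicate 1 of both drugs or without DMSO replicate 2. H2BC4, the H2B gene with the highest level per length, was not called: it had 215 and 207 CPM after 72 h of both drugs, 185 and 138 CPM with GSK343, 239 and 183 CPM with X5050, and 194 and 276 CPM in DMSO (-0.16 ± 0.17 with both drugs, adjusted p = 0.508).

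H2BC1, a testis-type H2B gene, was the H2B gene called higher, with 20.4 and 16.4 CPM against 8.84 and 15.2 CPM (log2 0.61 ± 0.23, edgeR adjusted p = 0.0461), and it lost the call in 3 of 4 fits with 1 library left out. H3C14 was called lower (-2.98 ± 0.85, adjusted p = 0.0148), with 0.438 and 0.191 CPM against 4.38 and 0.560 CPM in DMSO. The call was lost without DMSO replicate 1, where the value was -0.86 (adjusted p = 0.454), and without either replicate of both drugs. H3C14 and H3C15 are near-identical copies, and reads that fit both were not counted in this arm.

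**Figure D1:**
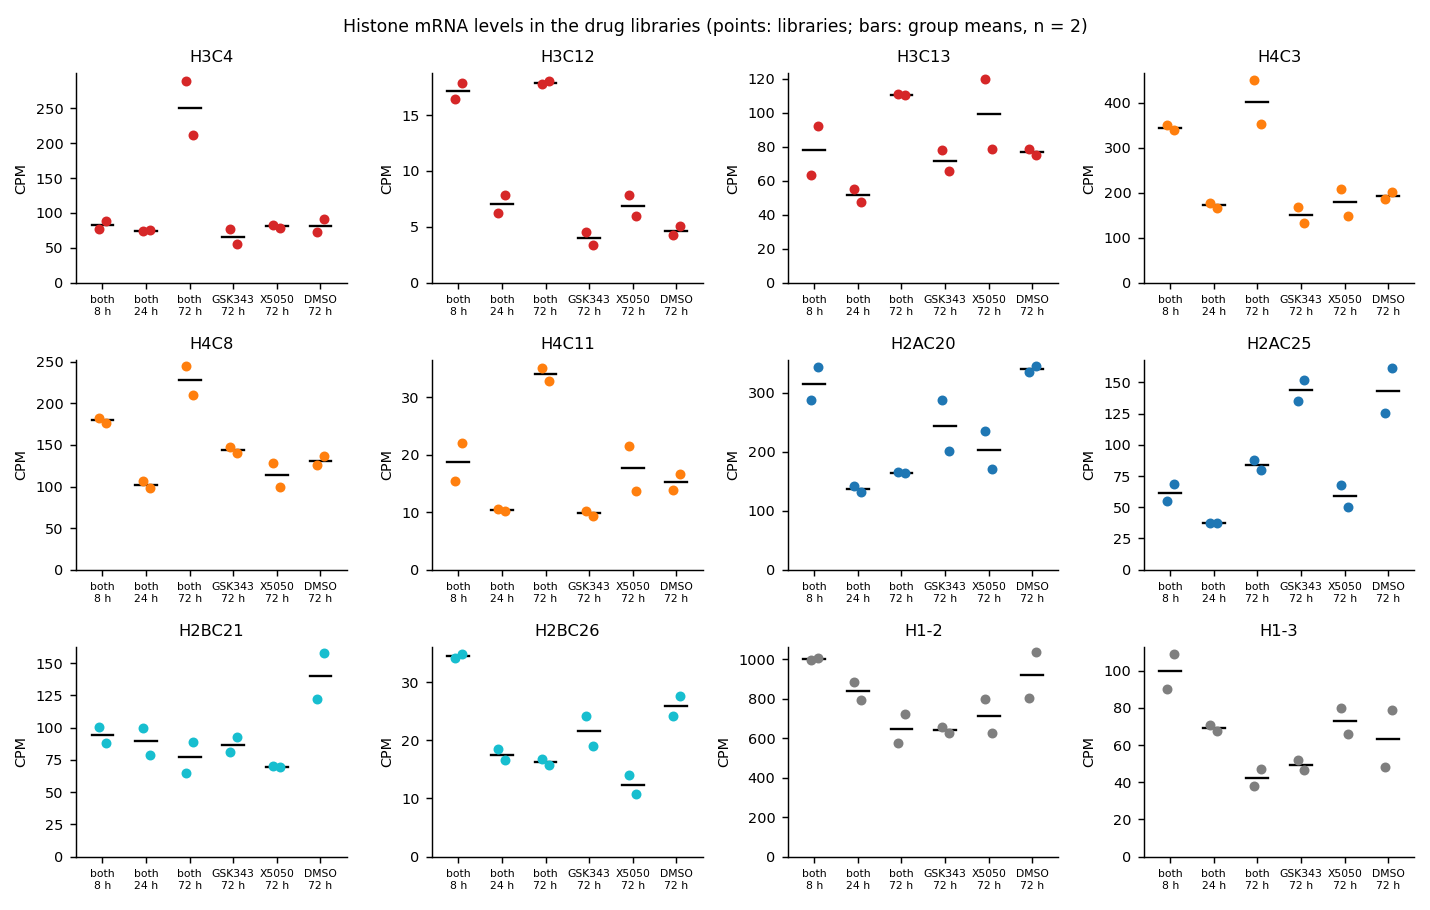
CPM of 12 histone genes in the 12 drug libraries (points) with group means (bars, n = 2); both drugs at 8, 24 and 72 h, then GSK343, X5050 and DMSO at 72 h. H3C4, H4C3, H4C8 and H4C11 are highest at 72 h of both drugs (288 and 211 CPM for H3C4), where H2AC20 and H2BC21 lie below DMSO.

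The sums per family within a library use the same CPM values again, so that their balance is no separate support. At 72 h of both drugs, H3C4, H4C3 and H4C8 hold most of the summed H3 and H4 CPM (288, 449 and 245 of 1147 CPM in replicate 1). The ratio of summed H3 and H4 CPM to summed H2A and H2B CPM was 0.325 and 0.302 at 8 h of both drugs, 0.267 and 0.253 at 24 h, and 0.616 and 0.511 at 72 h. With GSK343 the ratio was 0.251 and 0.264, with X5050 it was 0.283 and 0.260, and in DMSO 0.226 and 0.218. Both libraries at 72 h of both drugs exceeded the other 10. Summed over all histone genes found, the share of counts was 0.393% and 0.389% at 72 h of both drugs, against 0.381% and 0.4405% in DMSO, so that the groups overlap in the total. Reads that map to several places were not counted, and their share was 10.8% to 13.3% at 8 h and 24 h of both drugs, 26.7% and 26.1% at 72 h, 19.1% to 20.8% with the single drugs, and 19.01% and 19.5% in DMSO; its part in these results was not tested.

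**Figure D2:**
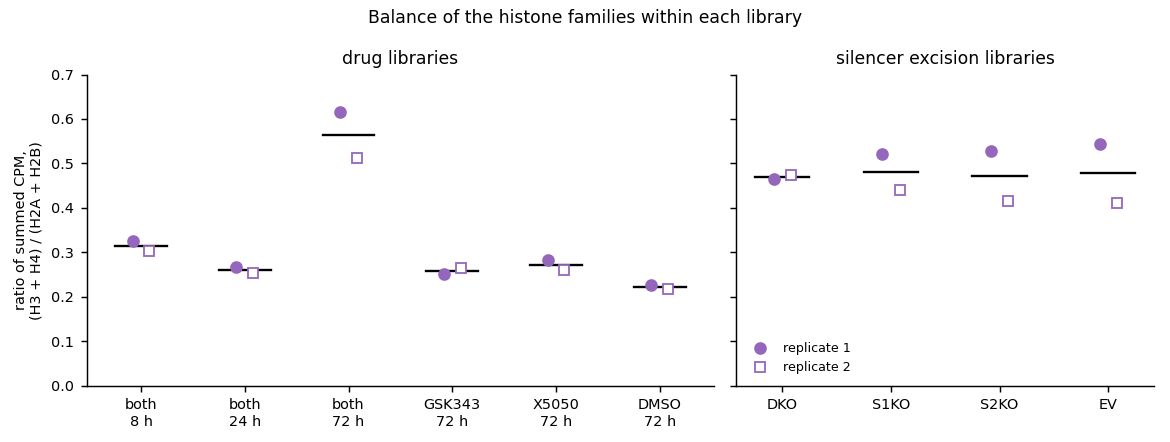
Ratio of summed H3 and H4 CPM to summed H2A and H2B CPM in each library (points) with group means (bars, n = 2), drug libraries left and excision libraries right. The 2 libraries at 72 h of both drugs, 0.616 and 0.511, are the highest of the drug libraries; the arms hold different sets of genes, so their ratios are not comparable.

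With GSK343 alone some histone genes fell, at similar shares of the tested H1, H2A and H2B genes. Of 30 genes 0 rose and 10 fell, where 9.12% of all genes tested were higher and 3.31% lower; the median log2 fold change was -0.47 over the histone genes and 0.00 over all genes. At an unadjusted p under 0.05, 1 was higher and 16 lower, and DESeq2 called 0 higher and 13 lower. The 10 included 4 of 9 H2B genes (H2BC5, H2BC15, H2BC18 and H2BC21) and 3 of 8 H2A genes (H2AC6, H2AC13 and H2AC21). The others were 2 of 5 H1 genes (H1-2 and H1-5) and 1 of 5 H3 genes (H3C14), with 0 of 3 H4 genes. H2BC18 had 40.7 and 35.3 CPM with GSK343 against 60.5 and 85.5 CPM in DMSO (log2 -0.94 ± 0.15, edgeR adjusted p = 0.000724). H2AC21 had 25.1 and 21.2 CPM against 34.6 and 41.5 CPM (-0.72 ± 0.16, adjusted p = 0.00922). Neither gene's groups overlap. H3C14, at -3.48 ± 0.87 (adjusted p = 0.0198), lost its call without DMSO replicate 1 (-1.35, adjusted p = 0.268) and without either GSK343 replicate. The call of H2BC18 was the one that stood with each library left out in turn: leaving out GSK343 replicate 1 or 2 gave 6 or 2 lower genes, and leaving out DMSO replicate 1 or 2 gave 11 or 2.

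With X5050 alone 4 genes fell and 0 rose, where 5.34% of all genes were higher and 7.23% lower; an unadjusted p under 0.05 gave 1 higher and 11 lower, and DESeq2 0 and 6. H2AC25 had 67.8 and 50.2 CPM with X5050 against 125 and 162 CPM in DMSO (log2 -1.28 ± 0.16, edgeR adjusted p = 0.000130). H2BC26 had 14.1 and 10.7 CPM against 24.2 and 27.7 CPM (-1.07 ± 0.16, adjusted p = 0.000667). H2BC21 had 70.1 and 69.3 CPM against 122 and 158 CPM (-1.01 ± 0.16, adjusted p = 0.00116). In each of the 3 genes both X5050 libraries lay below both DMSO libraries, and these calls held with any 1 library left out. H2AC20 (-0.74 ± 0.17, adjusted p = 0.00923) lost its call without X5050 replicate 2 or DMSO replicate 2. These 4 genes were also called lower after 72 h of both drugs, a comparison that shares the DMSO libraries. Of the 8 H3 and H4 genes 0 were called with X5050.

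The test of whether both drugs together differ from the sum of their single effects at 72 h (the interaction) passed upward for 11 of 30 histone genes and downward for 0, where 9.75% of all genes passed upward and 9.04% downward. At an unadjusted p under 0.05 the counts were 17 and 0, and with DESeq2 11 and 0. The median was 0.70 on the log2 scale over the histone genes and 0.02 over all genes. H3C4 had 1.93 ± 0.23 (edgeR adjusted p = 9.94e-05), H3C12 1.61 ± 0.30 (0.00171), H4C11 1.58 ± 0.29 (0.00179), H4C3 1.52 ± 0.23 (0.000407) and H4C8 0.86 ± 0.18 (0.00340). The other 6 were H2BC18 (1.41 ± 0.21, adjusted p = 0.000391), H1-6, H2AC6, H2BC21, H2BC5 and H2BC15. H2BC18 had another order of levels than the H3 and H4 genes: 90.3 and 94.8 CPM with both drugs, 40.7 and 35.3 CPM with GSK343, 72.7 and 61.6 CPM with X5050, and 60.5 and 85.5 CPM in DMSO, low with GSK343 alone and not low with both drugs.

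Set against each single drug, both drugs at 72 h gave 11 genes higher and 2 lower than GSK343, where 18.9% of all genes were higher and 20.5% lower. Against X5050 12 were higher and 1 lower, where 17.5% and 12.8% of all genes were. With each library left out in turn, 8 of the 11 and 1 of the 2 calls against GSK343 held, and 5 of the 12 and 0 of the 1 against X5050. Without X5050 replicate 2, 5 genes were higher and 6 lower than X5050, without either replicate of both drugs 7 were higher, and 6 or 4 were lower with the GC or length trend removed. H3C4 was higher by log2 1.92 ± 0.17 than with GSK343 (edgeR adjusted p = 8.28e-07) and by 1.63 ± 0.17 than with X5050 (5.58e-06). H3C12 was higher by 2.17 ± 0.21 and 1.37 ± 0.20, and H4C3 by 1.41 ± 0.16 and 1.17 ± 0.16. H2AC25 lay below GSK343 (-0.77 ± 0.16, adjusted p = 0.00101) and above X5050 (0.51 ± 0.16, adjusted p = 0.0220), and the second call was lost in 3 of 4 fits with 1 library left out.

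Over time with both drugs, most histone genes fell between 8 h and 24 h, and from 24 h to 72 h 6 of the 8 tested H3 and H4 genes rose. Of these 6, H3C12, H4C3 and H4C8 were also above DMSO at 8 h, while H3C4 was called neither at 8 h (0.02 ± 0.16, edgeR adjusted p = 0.938) nor between 8 h and 24 h (-0.16 ± 0.16, adjusted p = 0.491). The 8 h and 24 h groups have only a DMSO control of 72 h. Against DMSO, the drugs and the time in culture therefore cannot be told apart. Comparisons between times do not use DMSO. Without a DMSO group at 8 h and 24 h, they cannot tell drugs and time in culture apart either. At 8 h 13 histone genes were higher and 5 lower than DMSO, where 21.8% of all genes were higher and 21.2% lower. At 24 h 2 were higher and 10 lower, where the shares were 22.0% and 21.1%. Of these, 8 of the 13 and 1 of the 5 calls at 8 h, and 1 of the 2 and 4 of the 10 at 24 h, held with each library left out in turn. H3C14, at 0.0320 and 0.167 CPM at 24 h, was among those that held (-4.59 ± 0.97; -2.46 without DMSO replicate 1). From 8 h to 24 h 0 of 30 genes rose and 20 fell, where 18.4% of all genes rose and 17.4% fell; the median was -0.73 over the histone genes and 0.00 over all genes. DESeq2 gave 0 and 22, as did an unadjusted p under 0.05, and 9 of the 20 falls held with each library left out in turn.

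H1-5, a linker histone gene, had 165 and 193 CPM at 8 h, 111 and 97.3 CPM at 24 h, and 55.7 and 75.0 CPM at 72 h of both drugs, against 60.9 and 61.3 CPM in DMSO. It was above DMSO at 8 h (log2 1.55 ± 0.17, edgeR adjusted p = 5.40e-06) and 24 h (0.77 ± 0.17, adjusted p = 0.00178), and its 72 h libraries overlap with DMSO. H3C12 had 16.4 and 17.8 CPM at 8 h, 6.24 and 7.89 CPM at 24 h, and 17.7 and 18.01 CPM at 72 h, against 4.25 and 5.08 CPM in DMSO; the 8 h and 72 h levels overlap, with the 24 h level between them and DMSO. H2AC13 had 141 and 171 CPM at 8 h, 91.4 and 79.5 CPM at 24 h, and 61.6 and 64.1 CPM at 72 h, against 73.6 and 72.7 CPM in DMSO (1.09 ± 0.17 at 8 h, adjusted p = 9.95e-05).

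Other genes were already below DMSO at 8 h. H2AC25 had 54.9 and 68.4 CPM at 8 h, 37.7 and 37.5 CPM at 24 h, and 87.9 and 79.9 CPM at 72 h, against 125 and 162 CPM in DMSO, with log2 values of -1.22 ± 0.16, -1.93 ± 0.16 and -0.77 ± 0.16 (edgeR adjusted p = 1.84e-05, 2.20e-07 and 0.00108). H2AC11 had 289 and 329 CPM at 8 h, 183 and 264 CPM at 24 h, and 435 and 415 CPM at 72 h, against 515 and 468 CPM (at 24 h -1.14 ± 0.20, adjusted p = 0.000455). Both genes were lowest at 24 h, but the fall of H2AC11 from 8 h to 24 h was not called. The call of H2AC11 below DMSO at 8 h (log2 -0.67) was lost without 8 h replicate 1 and without either DMSO replicate. H1-6, a testis-type linker gene near the limit of detection, had 0.439 and 0.459 CPM at 8 h against 0.950 and 1.28 CPM in DMSO (-1.30 ± 0.44, adjusted p = 0.0246), a call lost in 3 of 4 fits with 1 library left out and with DESeq2.

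The 20 falls from 8 h to 24 h took in all 3 H4 genes, 2 of 5 H3, 6 of 8 H2A, 6 of 9 H2B and 3 of 5 H1 genes. H3C12 (-1.28 ± 0.20) and H2AC20 (-1.20 ± 0.17) had the largest of them (edgeR adjusted p = 0.000136 and 6.32e-05), and H4C3 had 177 and 167 CPM at 24 h against 350.3 and 339 CPM at 8 h (adjusted p = 0.000198). From 24 h to 72 h 9 genes rose and 4 fell, where 24.1% of all genes rose and 21.8% fell. The 9 were H3C4 (1.75 ± 0.17), H4C11 (1.70 ± 0.21), H3C12 (1.34 ± 0.20), H4C3 (1.22 ± 0.16), H2AC25 (1.16 ± 0.16), H4C8 (1.16 ± 0.13), H3C13 (1.10 ± 0.19), H2AC11 (0.93 ± 0.20) and H2BC1 (0.67 ± 0.23). All but the rise of H2BC1 held with each library left out in turn. Those that fell were H1-2, H1-3, H1-5 and H2AC13, and 0 of these 4 falls held in that way.

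**Figure D3:**
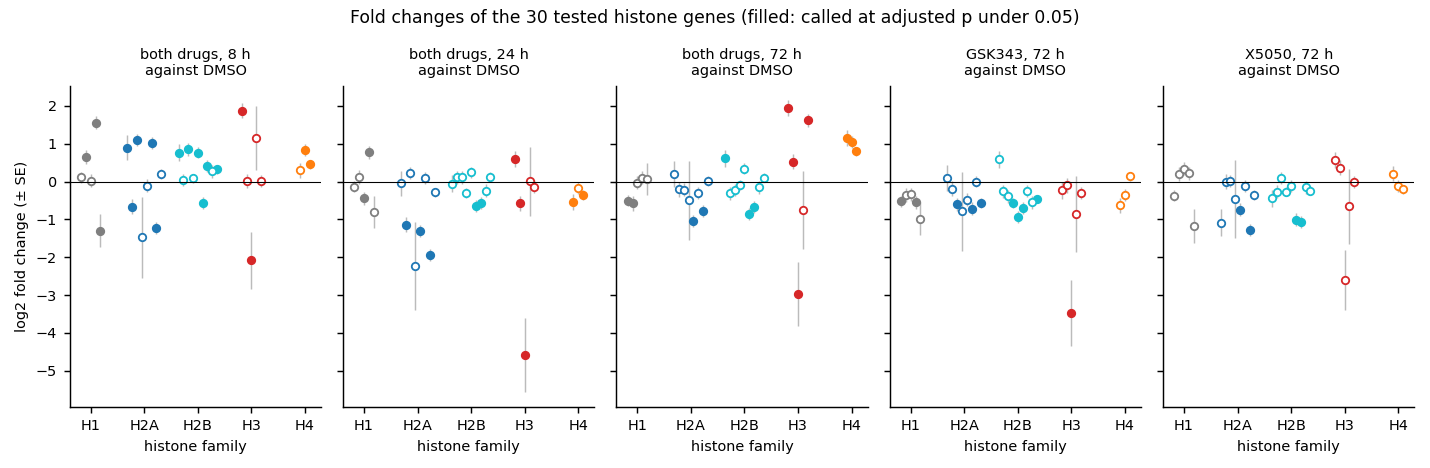
Log2 fold changes against DMSO (± SE) of the 30 tested histone genes by family in the 5 drug comparisons; filled points are called (edgeR adjusted p under 0.05). At 72 h of both drugs all 3 H4 genes and 3 of 5 H3 genes are called above 0, and with GSK343 the 10 called genes lie below 0; the lowest H3 point is H3C14.

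The factors of histone gene transcription did not follow 1 direction. Of 7 genes of histone gene transcription 2 rose and 0 fell at 8 h of both drugs, 5 and 0 at 24 h, and 1 and 1 at 72 h. Over all genes 21.8% were higher and 21.2% lower at 8 h, 22.0% and 21.1% at 24 h, and 19.2% and 17.3% at 72 h, so that the counts at 8 h and 72 h are near the background. HINFP, the H4 promoter factor, had 79.1 and 63.9 CPM at 72 h of both drugs, 29.2 and 26.6 CPM with GSK343, 32.6 and 32.3 CPM with X5050, and 33.6 and 42.5 CPM in DMSO, with both drugs above the other 6 libraries (log2 0.91 ± 0.14 against DMSO, edgeR adjusted p = 8.60e-05). Its interaction was 1.59 ± 0.19 (adjusted p = 8.81e-05). CASP8AP2, a partner of NPAT in the histone locus body, had 118 and 109 CPM at 8 h, 81.5 and 79.3 CPM at 24 h, and 35.8 and 37.5 CPM at 72 h, against 59.4 and 60.4 CPM in DMSO (0.92 ± 0.11, 0.42 ± 0.11 and -0.71 ± 0.11, all called). NPAT itself was higher at 8 h (0.40 ± 0.11, adjusted p = 0.00838) and 24 h (0.39 ± 0.11, adjusted p = 0.00972) and had 0.04 ± 0.11 at 72 h (adjusted p = 0.787).

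Of 17 genes of histone pre-mRNA 3′ end formation 6 rose and 3 fell at 8 h, 7 rose and 3 fell at 24 h, and 2 rose and 8 fell at 72 h of both drugs. Against the same shares of all genes, the falls at 8 h and 24 h are near the background. SLBP had 167 and 166 CPM at 8 h, 97.0 and 96.5 CPM at 24 h, and 101 and 90.6 CPM at 72 h, against 115 and 131 CPM in DMSO. It was above DMSO at 8 h (log2 0.44 ± 0.12, edgeR adjusted p = 0.00847) and below it at 24 h (-0.35 ± 0.12, adjusted p = 0.0311) and 72 h (-0.37 ± 0.12, adjusted p = 0.0285); with GSK343 alone it had -0.39 ± 0.12 (adjusted p = 0.0463). ZNF473, a zinc finger protein of the U7 processing complex, rose by 1.31 ± 0.15 at 8 h, 0.88 ± 0.15 at 24 h and 1.20 ± 0.15 at 72 h of both drugs and by 0.56 ± 0.15 with X5050 (adjusted p = 0.0212). NCBP1, a cap-binding protein, and CPSF3, the endonuclease that cuts histone pre-mRNA, fell at 72 h (-0.85 ± 0.11 and -0.80 ± 0.11, adjusted p = 1.72e-05 and 2.41e-05).

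Among 21 histone chaperones and assembly factors 1 rose and 14 fell at 72 h of both drugs, with RBBP4 and CHAF1A, subunits of chromatin assembly factor 1, at -0.86 ± 0.10 and -0.92 ± 0.11 on the log2 scale (edgeR adjusted p = 1.02e-05 and 1.13e-05). Of 19 genes of histone mRNA decay and translation 0 rose and 6 fell, and of 10 tested replication-independent histone genes 0 rose and 2 fell (H2AZ1 and H2AZ2); with 17.3% of all genes lower, the second count is near the background. Of 29 tested genes of S phase entry and origin firing 0 rose and 26 fell at 72 h of both drugs, with a median of -0.83; 0 rose and 12 fell with GSK343, and 0 and 10 with X5050, where 3.31% and 7.23% of all genes were lower. At 8 h 8 rose and 10 fell, where 21.8% and 21.2% of all genes did. CDC6, which loads the replicative helicase, fell at 72 h (log2 -1.34 ± 0.12, adjusted p = 5.49e-07), and CCNE2, a cyclin E, rose at 8 h (2.13 ± 0.18, adjusted p = 5.26e-07). In bulk RNA, fewer cells in S phase and less histone mRNA per cell cannot be told apart. H2BC12, left out of the gene set, had 0.35 ± 0.15 at 8 h, -0.11 ± 0.15 at 24 h and -0.32 ± 0.15 at 72 h, with no call.

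In the excision arm few histone genes were called between groups in the fit without a replicate term. After removal of both silencers 1 gene was higher and 2 lower of 40 than in EV, where 5.41% of all 21284 genes tested were higher and 3.35% lower. S1KO gave 1 higher and 1 lower than EV (all genes: 2.44% and 1.23%). S2KO gave 2 higher and 0 lower (all genes: 1.45% and 0.554%), with 3 and 2 at an unadjusted p under 0.05 and 3 and 0 by DESeq2. DKO gave 0 and 0 against S1KO (all genes: 0.625% and 0.470%), with 2 and 1 unadjusted and 0 and 1 by DESeq2, and 0 higher and 1 lower against S2KO (all genes: 1.61% and 1.36%), with 0 and 4 unadjusted and 0 and 3 by DESeq2. Among the factors, 0 of 7 genes of transcription and 0 of 17 of 3′ end formation were called in DKO against EV, with SLBP at 0.23 ± 0.27, NPAT at 0.03 ± 0.15 and CASP8AP2 at -0.05 ± 0.15. The chaperone RBBP4 (-0.73 ± 0.13, adjusted p = 0.0163) and the decay factors TUT4 and ERI1 were lower there, and the chaperones ASF1A and NAP1L4 higher.

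H3C4 had 8.46 and 9.94 CPM in DKO, 10.3 and 18.05 CPM in S1KO, 29.4 and 36.4 CPM in S2KO, and 65.9 and 56.3 CPM in EV, with no overlap between any 2 groups. It fell in DKO (log2 -2.73 ± 0.30, edgeR adjusted p = 0.00332) and in S1KO (-2.11 ± 0.29, adjusted p = 0.0131), had -0.89 ± 0.28 in S2KO (adjusted p = 0.250; with the replicate number as a term among S1KO, S2KO and EV, -0.94 ± 0.22, adjusted p = 0.0387), and was lower in DKO than in S2KO (-1.84 ± 0.29, adjusted p = 0.0265). The DKO call against EV held with each library left out, the S1KO call was lost without S1KO replicate 1, and the call of DKO against S2KO was lost without any 1 library. Its estimated counts are not whole numbers, so that reads shared with other transcripts enter the value, and another annotated gene overlaps H3C4 on the same strand in GENCODE 29.

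H2BC1 had 10.2 and 8.09 CPM in DKO, 6.34 and 4.68 CPM in S1KO, 11.7 and 10.3 CPM in S2KO, and 2.40 and 2.31 CPM in EV. All 3 excised groups lay above EV (log2 1.96 ± 0.25, 1.23 ± 0.25 and 2.23 ± 0.26; edgeR adjusted p = 0.00578, 0.0495 and 0.0101). H2AC1, also of testis type, had 2.93 and 2.25 CPM in DKO, 3.29 and 2.62 CPM in S1KO, 5.66 and 7.30 CPM in S2KO, and 1.05 and 1.24 CPM in EV, and was called in S2KO (2.50 ± 0.30, adjusted p = 0.0124). The S1KO call of H2BC1 was lost without any 1 of the 4 libraries, its DKO call without DKO replicate 1, and both S2KO calls without EV replicate 1 or EV replicate 2. H2BC15 had 106 and 122 CPM in DKO, 106 and 117 CPM in S1KO, 126 and 153 CPM in S2KO, and 180.0 and 189 CPM in EV, and fell in DKO (-0.70 ± 0.16, adjusted p = 0.0431), a call lost without any 1 of the 4 libraries.

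The genes with the highest level per length in the excision arm were H1-2, H2AC13, H2BC5, H3C10 and H4C11 for their families, with mean TPM (a level per transcript length) of 2298, 881, 430.5, 465 and 1972. Of these 5 genes 0 were called between groups without the replicate term described below. H4C11 had 498 and 616 CPM in DKO, 541 and 396 CPM in S1KO, 699.7 and 482 CPM in S2KO, and 751 and 417 CPM in EV. Its groups overlap, and replicate 2 lies below replicate 1 in S1KO, S2KO and EV. H3C10 had 131 and 178 CPM in DKO, 156 and 120.2 CPM in S1KO, 288 and 203 CPM in S2KO, and 346 and 165 CPM in EV (S1KO against EV -0.89 ± 0.38, edgeR adjusted p = 0.336).

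This order of the replicates ran through the histone genes. Over the genes found, DKO summed to 8103 and 9582 CPM, S1KO to 9909 and 7699.9 CPM, S2KO to 11691 and 7977 CPM, and EV to 11920.4 and 7304 CPM. In S1KO, S2KO and EV replicate 2 was the lower one for 31, 32 and 33 of 40 tested genes, and in all 3 for 29; in DKO it was for 3. A fit of those 6 libraries with the replicate number as a term, a comparison chosen after the values were seen, called 1 gene higher and 26 lower in replicate 2 than in replicate 1, where 17.2% of all 20633 genes tested were higher and 15.5% lower. The median was -0.49 over the histone genes and 0.03 over all genes, and 19 of the 26 held with each library left out. H3C12 had 16.5 CPM in replicate 2 against 60.2 CPM in replicate 1 of S1KO, 22.7 against 123 CPM in S2KO, and 12.7 against 110.3 CPM in EV (log2 -2.48 ± 0.24, edgeR adjusted p = 0.00126; without S2KO replicate 2, 0.0580). H3C13 (-1.56 ± 0.12), H1-3 (-1.45 ± 0.10) and H2AC12 (-1.41 ± 0.16) followed and held, and H1-6 was the gene that was higher (1.19 ± 0.34). SLBP was lower too (-0.51 ± 0.09, adjusted p = 0.00316), as were 12 of 17 genes of 3′ end formation, 10 of 29 of S phase entry and 7 of 21 chaperones; their part in the histone values was not tested.

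With that term, S1KO and S2KO against EV gave more called histone genes. In S1KO 3 were higher and 11 lower, where 7.94% of all genes were higher and 7.49% lower. Those lower were H1-3, H1-4, H1-5, H2AC11, H2BC5, H2BC11, H2BC13, H2BC15, H3C4, H3C10 and H4C8, from -2.18 ± 0.23 for H3C4 to -0.36 ± 0.10 for H2BC11 on the log2 scale. H2BC1, H2AC1 and H2AC18 were higher. H3C10 had -0.83 ± 0.16 in that fit (edgeR adjusted p = 0.00743) and H4C8 -0.78 ± 0.14 (adjusted p = 0.00413). In S2KO 3 were higher (H2AC1, H2BC1 and H2AC25) and 2 lower (H3C4 at -0.94 ± 0.22 and H2BC15 at -0.44 ± 0.11), where 5.30% and 3.82% of all genes were. The replicate numbers do not pair DKO with the other groups, so it was left out of that fit.

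**Figure D4:**
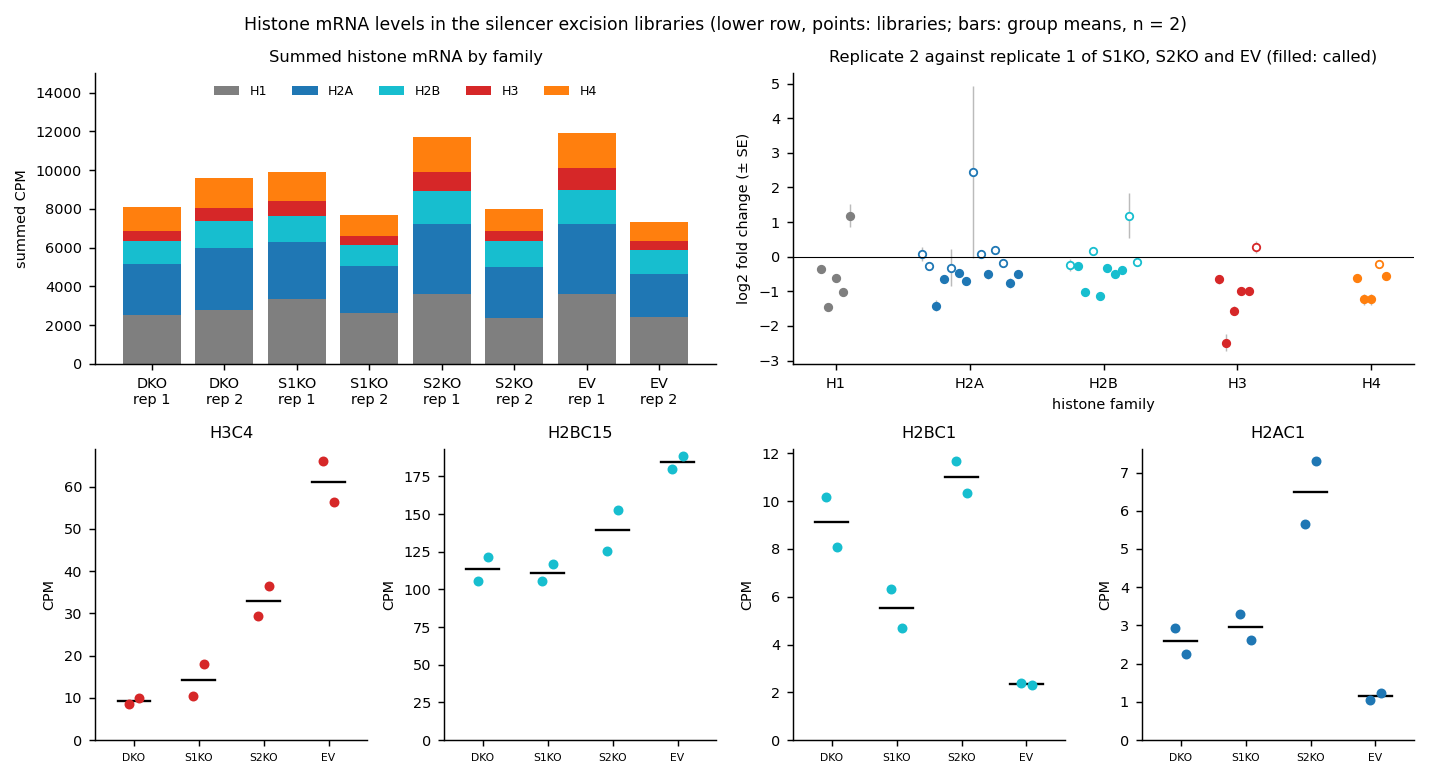
Histone mRNA in the 8 excision libraries: summed CPM by family (top left), log2 fold change of replicate 2 against replicate 1 over S1KO, S2KO and EV for the 40 tested genes (± SE, filled where called, top right), and CPM of 4 genes by library (bottom, n = 2 a group). Replicate 2 sums lie below replicate 1 sums in S1KO, S2KO and EV (7304 and 11920.4 CPM in EV) but not in DKO, while H3C4 separates all 4 groups.

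Several histone genes also have longer annotated transcripts. A fit per transcript, added after the values were seen, tested 101010 transcripts and called 0.620% higher and 0.474% lower in DKO than in EV. H2AC6 has a 1668-base transcript, annotated for nonsense-mediated decay, with 132 and 141 CPM in DKO, 145 and 149 CPM in S1KO, 125 and 83.3 CPM in S2KO, and 53.3 and 45.3 CPM in EV (DKO against EV log2 1.47 ± 0.22, edgeR adjusted p = 0.0429). Its 546-base coding transcript had 107 and 152 CPM in DKO, 113 and 118 CPM in S1KO, 169.97 and 199 CPM in S2KO, and 204 and 156 CPM in EV (-0.47 ± 0.22, adjusted p = 0.422). Both transcripts hold the stem-loop pattern, and H2AC6 as a gene had 0.19 ± 0.18 in DKO with no call. H2BC4 has a 659-base transcript without the pattern, with 19.8 and 18.9 CPM in DKO against 7.85 and 13.3 CPM in EV (0.88 ± 0.26, adjusted p = 0.221), and a 571-base one with it, with 155 and 199 CPM against 265 and 174 CPM (-0.31 ± 0.26, adjusted p = 0.664), neither of them called.

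Some histone values in the excision tables rest on how reads are split between copies. H3C14 with H3C15, and H4C14 with H4C15, have equal estimates in every library, so each pair is 1 measurement although the counts above hold both genes. H2AC19, a copy of H2AC18, was at 0 and 0 CPM in DKO, at 0 and 49.1 CPM in S1KO, at 4.90 and 14.4 CPM in S2KO and at 21.7 and 27.7 CPM in EV, while H2AC18 had 441 and 514 CPM in DKO against 389 and 195 CPM in EV. Added up, the 2 copies had 0.59 in DKO (log2, edgeR adjusted p = 0.320). H2BC12, outside the gene set, was at 0 in both libraries of DKO and of S1KO, at 36.7 and 33.5 CPM in S2KO and at 109 and 42.1 CPM in EV. With 3 counts per group as the floor, these estimates are at least 2765-fold lower in DKO and 4568-fold lower in S1KO than in EV. Each bound grows with the depth of the excised libraries. Whether reads of H2BC12 were assigned to similar transcripts was not tested, so the folds describe the estimates and do not bound its mRNA level. In the drug arm H2BC12 had 312 to 593 CPM. Estimated counts were whole numbers (within 0.01) in every library for 10 of the 40 tested genes: the 5 tested H1 genes, H2AC1, H2AC8, H2BC1, H3C10 and H4C3.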

How the data were processed

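Per the labels, libraries were made from total RNA with a stranded kit after rRNA depletion. Per the submitters' processing notes, the tools were Trimmomatic 0.38, STAR 2.7.3a and kallisto 0.44.0, with build hg19. The authors deposited gene counts for the drug arm, of which the reverse strand column was used, and estimated counts per transcript for the excision arm, which were summed per gene (GENCODE 29 names) and rounded; the deposited TPM values served for levels. GENCODE 29 names were matched for 52301 of 57736 gene IDs and for 182235 of 215170 transcript IDs.

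Each arm was fitted with all its groups in edgeR 4.0.16 (R 4.3.3; TMM, filterByExpr, robust quasi-likelihood test), with Benjamini-Hochberg adjusted p-values across every tested gene, called at 0.05. With 2 libraries a group, 0.333 is the smallest p an exact permutation test allows. SE is the fitted log2 fold change over the root of F. CPM is per TMM-scaled library. The code was tested on simulated data.

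Members and lists were chosen with earlier results of these data known. Named are the 3 largest rises and falls per control comparison among called members with separate libraries, the highest member per family, H2BC12, SLBP, NPAT and CASP8AP2, and of the up to 3 list genes of lowest p a selection; it and the other genes were chosen after their values were seen. Alternatives were DESeq2 1.42.0, RLE size factors, filters, strand, GC and length trends (loess span 0.3), libraries left out and a replicate block. Same-numbered libraries deviated together in S1KO, S2KO and EV (correlation of deviations 0.565 between S1KO and S2KO, 0.488 between S1KO and EV, 0.622 between S2KO and EV), but not with DKO (-0.06 to -0.08) or across the drug arm (-0.05 to 0.23).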

Additional observations from a re-analysis of the deposited data

Results flagged for a closer look

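The interaction of GSK343 and X5050 at 72 h passed its test (edgeR adjusted p under 0.05) for 11 histone genes: the effect of one drug differed with and without the other. On the log2 scale it was 2.22 for H1-6, 1.93 for H3C4, 1.61 for H3C12, 1.58 for H4C11, 1.52 for H4C3, 1.41 for H2BC18, 0.93 for H2AC6, 0.86 for H4C8, 0.83 for H2BC21, 0.81 for H2BC5 and 0.75 for H2BC15. With 1 library left out, the call of H1-6 was lost in 6 of 8 fits, that of H2BC21 in 5 and that of H2BC15 in 1, and those of the other 8 genes were kept in all 8.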

How the results depend on the processing

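Of the counts of called histone genes recomputed under another setting, 322 stayed within 1.5 times the main count and 98 did not; the calls of single named genes were kept in 350 settings and lost in 46, and 0 reversed. Counts are given as the value under the setting in place of the main one, and the cause was not tested.

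In the drug arm, no filter on low counts gave 1 in place of 0 genes higher and 17 in place of 10 lower with GSK343, 2 in place of 0 higher with X5050, and for 72 h of both drugs 7 in place of 4 lower than at 24 h and 4 in place of 1 lower than X5050. With the length trend removed 1 in place of 0 was higher with GSK343 and 1 in place of 0 with X5050, 3 in place of 5 were lower at 8 h, and at 72 h 7 in place of 4 were lower than at 24 h, 7 in place of 12 higher than X5050 and 4 in place of 1 lower. With the GC trend removed 4 in place of 2 were higher at 24 h, and at 72 h 7 in place of 4 were lower than at 24 h and 6 in place of 1 lower than X5050. Unstranded counts gave 3 in place of 5 lower at 8 h and 7 in place of 4 lower at 72 h than at 24 h. A fit of only the groups compared gave 4 in place of 10 lower with GSK343, 1 in place of 2 higher at 24 h and 7 in place of 4 lower than at 24 h for 72 h of both drugs.

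Among the excision libraries, S1KO against EV had 1 gene higher and 1 lower; this was 2 and 2 with DESeq2 and with the replicate block over all groups, 3 and 11 with the replicate block among S1KO, S2KO and EV, 0 higher and 2 lower with the GC trend removed and with length-scaled TPM counts, 0 and 0 in a fit of only the groups compared, and 0 higher with RLE size factors or the length trend removed. S2KO against EV had 2 in place of 0 lower with that smaller block and 0 in place of 2 higher in a fit of only the groups compared. DKO against EV had 3 in place of 1 higher with DESeq2 and with the replicate block, 2 in place of 1 with the length trend removed or length-scaled TPM counts, and 1 in place of 2 lower with the last. DESeq2 gave 1 in place of 0 lower for DKO than S1KO and 3 in place of 1 lower than S2KO, and the replicate block 2 in place of 1 for the second. The block moved no other count of calls beyond 1.5 times. A fit of only annotated transcripts was not run.

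With 1 library left out, the counts higher and lower ranged over 0 to 1 and 2 to 11 with GSK343, 0 to 3 and 3 to 10 with X5050, 8 to 15 and 2 to 3 at 8 h, 1 to 4 and 4 to 11 at 24 h, and 5 to 7 and 4 to 6 at 72 h of both drugs. They were 0 and 10 to 17 for 24 h against 8 h, 8 to 9 and 0 to 3 for 72 h against 24 h, 8 to 13 and 1 to 3 for 72 h against GSK343, 5 to 11 and 0 to 6 against X5050, and 9 to 17 and 0 to 1 for the interaction. They were 0 and 0 to 2 for S1KO, 0 to 2 and 0 for S2KO, 0 to 1 and 1 for DKO, each against EV, 0 and 0 for DKO against S1KO or S2KO, and 1 to 3 and 20 to 28 for replicate 2 against replicate 1. The libraries that moved a count most were GSK343 replicate 2 or DMSO replicate 2 (2 lower with GSK343), DMSO replicate 1 (10 lower with X5050, 8 higher at 8 h, 17 for the interaction), replicate 2 of 24 h (4 lower), replicate 1 of 72 h (4 lower at 72 h, 0 lower than at 24 h), replicate 2 of 8 h (10 lower at 24 h than at 8 h), X5050 replicate 2 (5 higher and 6 lower at 72 h than X5050, and 3 higher with X5050) and S1KO replicate 1 (3 higher in replicate 2). A lone library was taken to vary like the other groups. With 2 libraries a group, differences within the SE given are not detectable here. Some of several SE were not called either, such as H3C4 in S2KO against EV without a replicate term. Counting error is largest for genes below 1 CPM such as H3C14.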
